A study of Mus musculus with 9 samples.

Results

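Long-term haematopoietic stem cells are recognised by what they carry on their surface, and 10 genes of that kind were followed here over 9 arrays. They encode the endothelial protein C receptor (Procr), endomucin (Emcn), the SLAM receptors CD150 (Slamf1) and CD48 (Cd48), Sca-1 (Ly6a), the receptor tyrosine kinases c-kit (Kit), CD135 (Flt3) and Tie2 (Tek), the adhesion molecule Esam, and the intracellular exchange factor Fgd5. For each gene the probe set with exactly 1 gene symbol was used, and where several existed the one with the highest mean over all arrays. This gave 9 of the 10 genes among 22180 genes in all, each with 1 probe set. Ly6a had no probe set that carried its symbol alone, and was not analysed here.

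The cells came from C57BL/6 bone marrow and were sorted by flow cytometry as lineage-negative, Sca-1-positive and c-kit-positive cells lacking CD34 and CD135. The groups, of 3 biological replicates each, were MxCre Jak2VF/+ EZH2-/- mice (Jak2VF_Ezh2KO), with 1 mutant Jak2 allele and loss of the Polycomb methyltransferase Ezh2, MxCre Jak2VF/+ mice (Jak2VF), with the mutant Jak2 allele alone, and WT (control) mice (WT). All 3 groups received 5 doses of 300 µg pI-pC, the first at an age of 4 weeks, and marrow was taken 12 weeks after the injections. pI-pC induces interferon and so switches on MxCre, whose promoter answers interferon in blood cells and other tissues. The sources used here do not say whether WT mice carried MxCre, nor whether a replicate is 1 mouse or a pool. In bulk RNA from a sorted population, a change in the share of cells that use a gene and a change in RNA per cell cannot be told apart.

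As background, the members fall into several kinds. Kit and Sca-1 mark all primitive cells of the mouse marrow, whereas Flt3 appears as cells lose long-term repopulating ability, so the gate took the first pair and left out CD135. Slamf1 stays on the most primitive cells and CD48 comes on in multipotent progenitors, which is the basis of the SLAM scheme of stem cell isolation. Procr, Emcn, Tek and Esam are shared between stem cells and vascular endothelium, and Fgd5 reporters label stem cells.

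The median log2 signal of an array was 5.51 to 5.67. Replicates 1 and 2 of Jak2VF_Ezh2KO carried Y-linked signal, with a mean of 6.66 and 6.81 over the Y-linked genes read, against 3.64 to 4.08 on the other 7 arrays, so sex differed within that group. Ezh2 itself read 8.47, 8.08 and 8.42 in Jak2VF_Ezh2KO, against 8.87, 9.09 and 8.78 in Jak2VF, and 8.48, 8.81 and 8.69 in WT. Its Jak2VF_Ezh2KO minus Jak2VF difference was -0.59 ± 0.16 (SE; adjusted p = 0.411 with limma), without a call. For Jak2 the Jak2VF minus WT difference was 0.25 (adjusted p = 0.924 with limma). The position of these probe sets relative to the altered parts of both genes is unknown here, so neither level checks the genotype. The labelled cell type was compared with marker lists through the signal of 1409 olfactory, vomeronasal and related receptor genes, taken as a rough floor. Of 19 measured stem cell reporter and regulator genes, 18 lay above the 95th percentile of those receptor genes. Of 28 other stem cell surface genes 20 did so, and 8 did not. Also above that percentile were 1 of 12 T and NK cell markers, 1 of 10 B cell markers, 4 of 14 mast cell and basophil markers and 5 of 20 endothelial markers. Erythroid markers lay above it in 10 of 10 cases, megakaryocyte markers in 9 of 13, progenitor genes in 14 of 19 and neutrophil and monocyte markers in 6 of 15. Many genes of any kind pass this level, since Fgd5, just under it, had a mean above only 56% of all genes. The lower of these counts therefore do not set a list apart. Among the members, Fgd5 alone lay below that level by its mean over all arrays, above 94.3% of the receptor genes, so its signal was dim. The level was a log2 signal of 6.1, and the Jak2VF mean of Emcn, 6.09, lay at it.

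**Figure D1:**
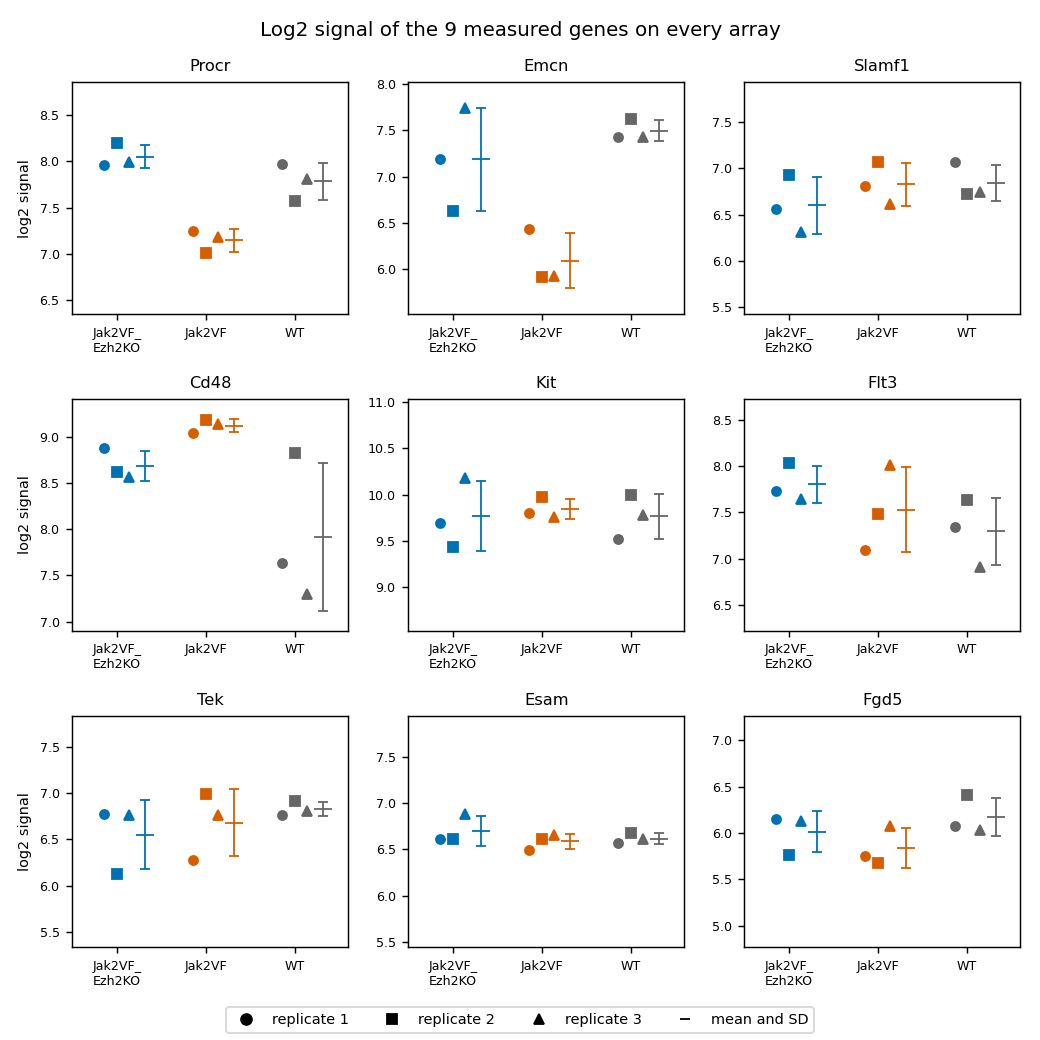
Log2 signal (vertical axes, each spanning the same number of log2 units) of the 9 measured genes on every array, by genotype (horizontal axes). Circles, squares and triangles are replicates 1, 2 and 3, and bars give the mean and SD of 3 arrays. The 3 Jak2VF arrays lie below all others for Procr and Emcn and above all others for Cd48.

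Procr and Emcn were the members whose groups stood furthest apart relative to their spread. Both read lowest on the 3 Jak2VF arrays. Neither passed over all genes in any of the 3 comparisons.

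Procr encodes the receptor for protein C, CD201, which is used to enrich repopulating stem cells. It read 7.96, 8.19 and 7.99 in Jak2VF_Ezh2KO, 7.25, 7.01 and 7.18 in Jak2VF, and 7.97, 7.57 and 7.81 in WT (log2 signal). All Jak2VF arrays lay below all 6 others, and the Jak2VF_Ezh2KO and WT ranges overlapped. Jak2VF minus WT was -0.64 ± 0.14 (SE), or 0.642 times the WT signal, with a 95% interval of -0.96 to -0.32 (limma, adjusted p = 0.868). Jak2VF_Ezh2KO minus Jak2VF was 0.90 ± 0.14, or 1.87-fold, with an interval of 0.58 to 1.22 (limma, adjusted p = 0.0941). With the dimmer genes left out, which shortens the list over which p is adjusted, the second difference had an adjusted p of 0.0466 (limma), the single setting in which a member passed. Over the other settings its adjusted p ranged up to 0.787. Jak2VF_Ezh2KO minus WT was 0.26, with an interval of -0.06 to 0.58 that includes no difference (limma, adjusted p = 0.64), and it was 0.16 without WT replicate 2.

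Emcn encodes endomucin, a mucin-like sialoglycoprotein of stem cells and venous and capillary endothelium. Its log2 signal was 7.19, 6.63 and 7.74 in Jak2VF_Ezh2KO, 6.43, 5.92 and 5.92 in Jak2VF, and 7.43, 7.63 and 7.43 in WT. Jak2VF lay below both other groups on every array, and the Jak2VF_Ezh2KO arrays were spread on both sides of WT, with replicate 2 nearest to Jak2VF. The Jak2VF mean, 6.09, lay at the receptor gene level of 6.1 taken as a rough floor, with replicates 2 and 3 under it. The size of any difference from Jak2VF is therefore uncertain. Jak2VF minus WT was -1.40 ± 0.26 (SE), or 0.378 times the WT signal, with a 95% interval of -1.98 to -0.83 (limma, adjusted p = 0.589). In that comparison Emcn had rank 11 and Procr rank 33 by p among the 22180 genes. Jak2VF_Ezh2KO minus Jak2VF was 1.10 ± 0.26, or 2.14-fold, with an interval of 0.52 to 1.67 (limma, adjusted p = 0.335). It was 0.82 without Jak2VF_Ezh2KO replicate 3, and 1.65 on the contrast of replicate 3 alone with Jak2VF, once both arrays with Y-linked signal were left out. Jak2VF_Ezh2KO minus WT was -0.31, with an interval of -0.88 to 0.27 (limma, adjusted p = 0.756), and was -0.58 without Jak2VF_Ezh2KO replicate 3 and -0.03 without replicate 2. Its sign turned to 0.24 when replicate 3 alone stood for the group.

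Since 2 of these comparisons share the Jak2VF arrays, low values there alone give differences of opposite sign in both. A test of any difference among the 3 groups does not pick a pair. It gave Procr an adjusted p of 0.171 and Emcn an adjusted p of 0.251 (limma F test), at ranks 37 and 65 by p. Of the 9 measured members, 3 had an unadjusted F-test p under 0.05 (Procr, Emcn and Cd48), against 6.88% of all genes, and 0 passed after adjustment, against 0.0271% of all genes.

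The promoters of Procr, Emcn and Cd48 are shown because these 3 genes had an unadjusted F-test p under 0.05. Each runs from 250 bases before to 50 bases after the RefSeq start (GRCm38.p6), on the plus strand, 5′ to 3′. Capitals mark matches on either strand to any of 4 short motifs, namely the STAT motif TTCNNNGAA, the GATA motif AGATAA, the RUNX motif TGTGGT and the ETS motif AGGAAG, none of which overlap in these windows.
Procr, chr2:155750967-155751266: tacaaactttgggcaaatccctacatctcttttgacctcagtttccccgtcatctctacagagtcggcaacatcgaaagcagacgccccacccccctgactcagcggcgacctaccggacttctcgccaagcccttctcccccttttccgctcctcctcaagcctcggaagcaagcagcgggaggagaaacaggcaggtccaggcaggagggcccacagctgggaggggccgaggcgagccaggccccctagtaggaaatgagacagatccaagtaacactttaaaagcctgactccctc
Emcn, chr3:137340828-137341127: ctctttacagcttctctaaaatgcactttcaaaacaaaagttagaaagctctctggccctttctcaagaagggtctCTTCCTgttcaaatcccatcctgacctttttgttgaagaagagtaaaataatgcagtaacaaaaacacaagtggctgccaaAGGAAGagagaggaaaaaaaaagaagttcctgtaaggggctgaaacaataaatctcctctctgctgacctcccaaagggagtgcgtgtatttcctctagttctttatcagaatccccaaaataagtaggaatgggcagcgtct
Cd48, chr1:171681742-171682041: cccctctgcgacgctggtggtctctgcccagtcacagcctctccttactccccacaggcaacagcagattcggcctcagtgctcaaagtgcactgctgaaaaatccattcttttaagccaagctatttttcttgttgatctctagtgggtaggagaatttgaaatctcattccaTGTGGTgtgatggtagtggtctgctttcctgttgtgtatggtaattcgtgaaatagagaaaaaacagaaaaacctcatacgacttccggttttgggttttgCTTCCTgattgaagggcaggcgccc
The Procr window holds 0 matches to any of the 4 motifs and has 13 CpG dinucleotides, more than 62.1% of the 32851 promoters in the table. The Emcn window holds 2 ETS matches, from -174 to -169 and from -93 to -88 relative to the start, and 2 CpG dinucleotides. In Cd48 a RUNX match lies from -76 to -71 and an ETS match from 25 to 30, with 7 CpG dinucleotides, which is the median of all promoters. Over all promoters of this length, 35.4% hold the ETS motif, 16.8% the RUNX motif, 11.2% the GATA motif and 8.3% the STAT motif. Promoters of 8 of the 10 genes were in the table, Esam and Ly6a being the others, and none of the 8 held the STAT motif. A match is a string of letters and not a binding site.

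In the SLAM pair, Cd48 read higher in both mutant genotypes than on WT replicates 1 and 3, and Slamf1 overlapped between groups in every comparison. CD48 is a GPI-anchored ligand of the receptor CD244, and Slamf1 (CD150) is a self-binding receptor. Both genes lie in the SLAM gene cluster of chromosome 1, in the RefSeq order Cd244a, Ly9, Slamf7, Cd48, Slamf1, Cd84 and Slamf6 with the entry Tma7-ps between Cd48 and Slamf1.

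Cd48 read 8.87, 8.62 and 8.56 in Jak2VF_Ezh2KO, 9.04, 9.18 and 9.13 in Jak2VF, and 7.64, 8.82 and 7.30 in WT (log2 signal). The Jak2VF arrays were the highest and lay close together, while WT replicate 2 stood above the other WT arrays and within the Jak2VF_Ezh2KO range. Jak2VF minus WT was 1.20 ± 0.32 (SE), or 2.30-fold, with a 95% interval of 0.49 to 1.91 (limma, adjusted p = 0.924). Without WT replicate 2 this difference was 1.65 (limma, adjusted p = 0.0769), and without WT replicate 3 it was 0.89. Jak2VF_Ezh2KO minus WT was 0.77, or 1.70-fold, with an interval of 0.06 to 1.48 (limma, adjusted p = 0.564). Leaving out WT replicate 2 made it 1.22, and leaving out WT replicate 3 made it 0.46. Jak2VF_Ezh2KO minus Jak2VF was -0.43, with all Jak2VF_Ezh2KO arrays below all Jak2VF arrays and an interval of -1.14 to 0.28 (limma, adjusted p = 0.83).

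Progenitor genes were read beside Cd48. The mean log2 signal of 19 measured genes of multipotent and committed progenitors, apart from the members, was 7.10, 7.09 and 7.29 in Jak2VF_Ezh2KO, 7.09, 7.23 and 7.34 in Jak2VF, and 6.80, 7.11 and 6.51 in WT. WT replicate 2 was again the highest WT array and replicate 3 the lowest. Over these 19 genes the median of Jak2VF minus WT was 0.38, against 0.03 over all genes, and 0 passed in any of the 3 comparisons. In Jak2VF against WT, groups did not overlap for 4 of these genes on the higher and 0 on the lower side, against 3.54% and 2.57% of all genes. Irf8, a transcription factor of myeloid progenitors, read 6.69, 6.78 and 6.82 in Jak2VF against 5.89, 6.41 and 5.55 in WT. The lymphoid progenitor genes Dntt and Il7r, ahead of Irf8 by F-test p, had Jak2VF minus WT differences of 0.49 and -0.34 (limma, adjusted p = 0.924 and 0.938). Whether progenitor cells contributed to the Cd48 values was not tested.

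Slamf1 had log2 signals of 6.56, 6.92 and 6.31 in Jak2VF_Ezh2KO, 6.80, 7.06 and 6.61 in Jak2VF, and 7.06, 6.72 and 6.74 in WT. The ranges of all 3 groups overlapped, and Jak2VF minus WT was -0.02, with a 95% interval of -0.44 to 0.41 (limma, adjusted p = 0.996). Jak2VF_Ezh2KO minus WT was -0.24, with an interval of -0.67 to 0.18 (limma, adjusted p = 0.741), so differences of up to these bounds cannot be told from none. This value was -0.10 without Jak2VF_Ezh2KO replicate 3, -0.13 without WT replicate 1 and -0.41 without Jak2VF_Ezh2KO replicate 2, and -0.53 with a covariate for Y-linked signal. The 10 other SLAM family and adaptor genes had 0 calls in each comparison. Among them Cd244a, which encodes the CD48 receptor, read 6.42, 6.20 and 6.28 in Jak2VF_Ezh2KO, 7.21, 6.92 and 6.72 in Jak2VF, and 6.50, 6.63 and 6.64 in WT. All Jak2VF arrays of Cd244a lay above all others, and Jak2VF_Ezh2KO minus Jak2VF was -0.65 (limma, adjusted p = 0.317). Fyn, a kinase that binds SLAM adaptors, and the SLAM receptor gene Cd84 were next in order of F-test p, with differences between any pair of groups from -0.41 to 0.25.

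**Figure D2:**
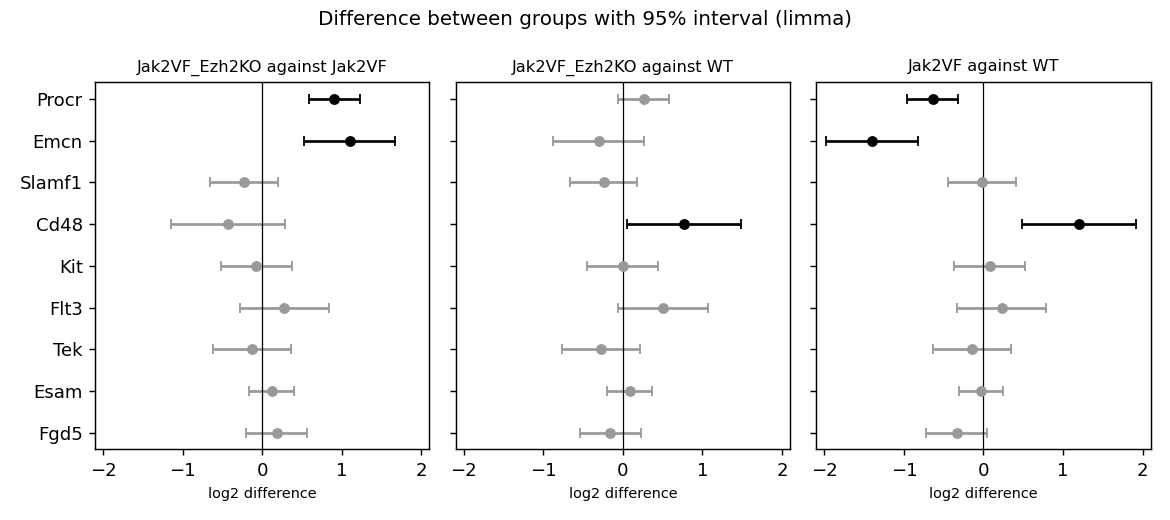
Difference in log2 signal between groups (horizontal axis) for the 9 measured genes in 3 comparisons, as points with 95% intervals from limma. Black marks an unadjusted p under 0.05 and grey the others. Procr and Emcn lie left of 0 for Jak2VF against WT and right of 0 for Jak2VF_Ezh2KO against Jak2VF, and Kit and Esam stay near 0 throughout.

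Of the genes of the sort gate, none passed. Kit, the receptor for stem cell factor, gave log2 signals of 9.69, 9.43 and 10.18 in Jak2VF_Ezh2KO, 9.80, 9.97 and 9.76 in Jak2VF, and 9.52, 10.00 and 9.78 in WT. Groups overlapped, and the differences were 0.08 for Jak2VF minus WT (95% interval -0.37 to 0.52) and -0.08 for Jak2VF_Ezh2KO minus Jak2VF (-0.52 to 0.37). Kit also marks mast cells, and the mean of 14 mast cell and basophil markers was 5.45 to 5.82 in Jak2VF_Ezh2KO, 5.22 to 5.57 in Jak2VF and 4.94 to 5.02 in WT. The mast cell protease gene Cma1 was the 1 marker of that list that passed, being 1.63 higher in Jak2VF_Ezh2KO than in Jak2VF (limma, adjusted p = 0.0441) and 1.67 higher than in WT (limma, adjusted p = 0.0459). Each of these calls was lost in 14 of 20 other settings, among them the replicate block (adjusted p = 0.121 and 0.122), ordinary least squares and fits of 2 groups alone. The differences stayed between 1.39 and 1.80, with adjusted p from 0.023 to 0.538 (limma). The mean signal of Cma1 over all arrays lay above 88% of the receptor genes, below the 95th percentile used as a floor (6.1). Its Jak2VF_Ezh2KO arrays read 6.91, 6.49 and 6.35, above that floor, and the means of Jak2VF and WT, 4.96 and 4.91, lay below it. Kit was not called in either comparison (limma, adjusted p = 0.963 against Jak2VF and 1 against WT).

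Flt3 encodes the receptor CD135, which the gate excluded as a protein. Its log2 signal was 7.73, 8.03 and 7.64 in Jak2VF_Ezh2KO, 7.10, 7.48 and 8.01 in Jak2VF, and 7.34, 7.64 and 6.91 in WT. The Jak2VF_Ezh2KO arrays lay just above all WT arrays, nearly touching WT replicate 2, and the Jak2VF arrays spanned nearly the whole range. Jak2VF_Ezh2KO minus WT was 0.50 ± 0.25 (SE), or 1.42-fold, with a 95% interval of -0.06 to 1.06 (limma, adjusted p = 0.614), and 0.31 without WT replicate 3. Jak2VF minus WT was 0.23 (limma, adjusted p = 0.935) and turned to -0.01 without Jak2VF replicate 3.

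Cd34, the other excluded marker, read 9.91, 10.06 and 9.97 in Jak2VF_Ezh2KO, 10.38, 10.52 and 10.68 in Jak2VF, and 10.19, 10.57 and 10.19 in WT. Every Jak2VF_Ezh2KO array lay below every array of the other groups, with a difference of -0.55 from Jak2VF that did not pass (limma, adjusted p = 0.413). Of the lineage genes in the gate list, Il7r, the interleukin-7 receptor gene of lymphoid progenitors, read 6.05, 7.25 and 7.33 in Jak2VF_Ezh2KO, 5.57, 4.80 and 4.40 in Jak2VF, and 5.19, 5.57 and 5.04 in WT. Its Jak2VF_Ezh2KO arrays were the highest, 1.95 above Jak2VF (limma, adjusted p = 0.221), as were those of the lymphoid progenitor gene Dntt, 1.59 above Jak2VF (limma, adjusted p = 0.342). In Cd4 the largest difference was -0.48, for Jak2VF_Ezh2KO minus WT. Of the 10 measured gate and lineage genes besides the members, 0 passed in any comparison. Array RNA does not show the surface protein on which the cells were sorted.

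For Ly6a, 13 measured relatives in the Ly6 and Lypd families were read in its place as family context only. None passed in any comparison, and the median of Jak2VF minus WT was -0.12. Ly6e, a GPI-anchored relative, read 11.46, 11.31 and 11.88 in Jak2VF_Ezh2KO, 11.46, 11.84 and 11.60 in Jak2VF, and 10.81, 11.28 and 11.39 in WT, with all Jak2VF arrays above all WT arrays and a difference of 0.47 (limma, adjusted p = 0.924). Ly6d and Ly6f, the others with the smallest F-test p, differed between Jak2VF and WT by -0.24 and -0.37. Members of this family are similar in sequence, so probe sets may share signal.

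The remaining vascular and stem cell genes, Tek, Esam and Fgd5 had 0 calls in the 3 comparisons. Tek encodes Tie2, the receptor for angiopoietin-1, which holds stem cells in quiescence. Its log2 signal was 6.77, 6.12 and 6.76 in Jak2VF_Ezh2KO, 6.28, 6.99 and 6.77 in Jak2VF, and 6.77, 6.91 and 6.80 in WT. Single low arrays, replicate 2 in Jak2VF_Ezh2KO and replicate 1 in Jak2VF, set the spread, and the WT arrays lay close together. Jak2VF_Ezh2KO minus WT was -0.28, with a 95% interval of -0.77 to 0.21 (limma, adjusted p = 0.742), and -0.06 without Jak2VF_Ezh2KO replicate 2. Jak2VF minus WT was -0.15 (limma, adjusted p = 0.95) and became 0.05 without Jak2VF replicate 1. Among 12 measured ligands and partners of the member receptors, 0 passed. Tie1, the sister receptor of Tie2, read 7.29, 7.64 and 7.35 in Jak2VF_Ezh2KO, 6.97, 7.11 and 7.11 in Jak2VF, and 6.85, 7.11 and 7.14 in WT, with all Jak2VF_Ezh2KO arrays the highest (0.40 above WT, limma, adjusted p = 0.516). The thrombin receptor gene F2r was 0.86 higher in Jak2VF than in WT and Pdgfrb, a growth factor receptor gene, was 0.91 higher (limma, adjusted p = 0.924 for both).

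Esam, an immunoglobulin-like junction protein of endothelium and stem cells, had the smallest range of the members. Its log2 signal was 6.61, 6.61 and 6.89 in Jak2VF_Ezh2KO, 6.49, 6.61 and 6.65 in Jak2VF, and 6.57, 6.67 and 6.61 in WT. On 4 of the 9 arrays the deposited Esam value was identical to every digit, a feature shared by 10% of all genes. Its spread may therefore not be that of independent readings, and the cause of the repeats was not tested. Fgd2, Fgd6 and Ebf1, also read here, repeat a value over several arrays too. Jak2VF minus WT was -0.03 (95% interval -0.31 to 0.25) and Jak2VF_Ezh2KO minus Jak2VF was 0.12 (-0.16 to 0.40). The second value was 0.023 without Jak2VF_Ezh2KO replicate 3, 0.072 without Jak2VF replicate 1 and 0.30 with a covariate for Y-linked signal.

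Fgd5 encodes an exchange factor for the GTPase Cdc42. Its log2 signal was 6.16, 5.76 and 6.13 in Jak2VF_Ezh2KO, 5.76, 5.68 and 6.08 in Jak2VF, and 6.08, 6.41 and 6.03 in WT. The groups overlapped through Jak2VF replicate 3, and Jak2VF minus WT was -0.34 ± 0.17 (SE), with a 95% interval of -0.72 to 0.05 (limma, adjusted p = 0.924). Without Jak2VF replicate 3 it was -0.46, and without WT replicate 2 it was -0.22. The 5 other Fgd genes had 0 calls, and of Fgd3, Fgd2 and Fgd6 the differences furthest from 0 were -0.43, 0.24 and 0.16.

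Endothelial markers were read beside Procr, Emcn, Tek and Esam, and the list mean overlapped between all groups. The mean log2 signal of 20 endothelial markers was 5.63 to 5.78 in Jak2VF_Ezh2KO, 5.63 to 5.85 in Jak2VF and 5.64 to 5.74 in WT. Of these markers 15 lay at or below the 95th percentile of the receptor genes, among them Cdh5, Kdr, Cldn5, Plvap and Stab2, and 0 passed in any comparison. For Jak2VF_Ezh2KO against either other group, 1 marker of 20 (Tie1) lay higher and 1 lower without overlap. Of all genes, 4.18% lay higher and 6.94% lower against Jak2VF, and 6.28% and 6.62% against WT. For Jak2VF against WT 0 markers did so, against 3.54% higher and 2.57% lower of all genes. The 3 with the smallest F-test p were Tie1, Pecam1 and Egfl7, with the largest difference 0.62 for Pecam1 in Jak2VF minus WT (limma, adjusted p = 0.924).

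**Figure D3:**
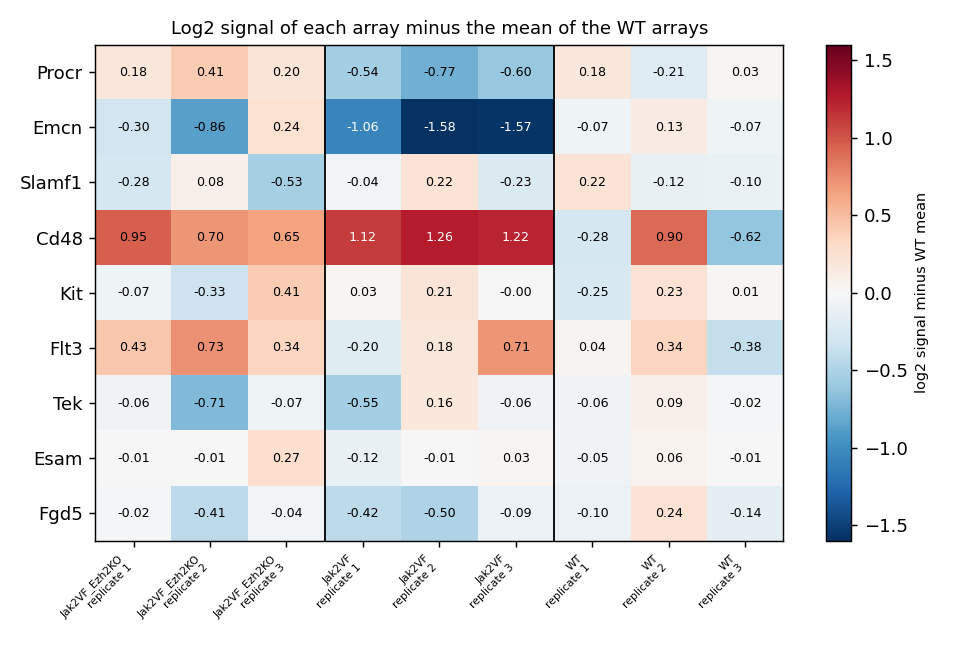
Log2 signal of each gene (rows) on each array (columns, by genotype) minus the mean of the 3 WT arrays of that gene, as colour and printed value. Emcn ranges from -1.06 to -1.58 in Jak2VF, and Cd48 from 0.65 to 1.26 over both mutant genotypes with 0.90 in WT replicate 2.

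Counted over the members, Jak2VF against WT gave 0 of 9 measured genes past the adjusted threshold of 0.05, where limma called 0% of all genes (0) and a fit by ordinary least squares called 0 too. With no adjustment 3 had p under 0.05, against 4.66% of all genes (1034). These were Cd48 on the higher side, against 2.85% of all genes, and Procr and Emcn on the lower side, against 1.81%. Groups did not overlap for Cd48, Procr and Emcn, against 6.11% of all genes, made up of 3.54% higher and 2.57% lower. Since the members were chosen with earlier results of these arrays known, a share above that of all genes is a description. The median difference of the 9 was -0.03 against 0.03 over all genes, and the median absolute difference was 0.23 against 0.13.

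For Jak2VF_Ezh2KO against Jak2VF 0 of 9 passed with limma, against 0.0451% of all genes (10), made up of 0.0316% higher and 0.0135% lower. At an unadjusted p under 0.05, Procr and Emcn were higher and 0 members were lower, against 6.89% of all genes (1529), made up of 2.91% higher and 3.99% lower. Groups did not overlap for 3, namely Procr and Emcn on the higher and Cd48 on the lower side, against 11.1% of all genes, made up of 4.18% higher and 6.94% lower. The median difference was 0.12, against -0.04 over all genes. For Jak2VF_Ezh2KO against WT 0 passed, against 0.0225% (5), made up of 0.018% higher and 0.00451% lower. Cd48 was the 1 member at an unadjusted p under 0.05, on the higher side, against 8.6% (1908), made up of 4.54% higher and 4.06% lower. Flt3 was the 1 member without overlap, also on the higher side, against 12.9%, made up of 6.28% higher and 6.62% lower, and the median difference was 0.00, against -0.02 over all genes. Over the settings tried, the members at an unadjusted p under 0.05 stayed Procr, Emcn and Cd48 for Jak2VF against WT, with Fgd5 added without Jak2VF replicate 3. For Jak2VF_Ezh2KO against Jak2VF they stayed Procr and Emcn, with Cd48 added without WT replicate 2 and in a fit of those 2 groups alone. For Jak2VF_Ezh2KO against WT they numbered 0 to 2, and Cd48 did not stay among them. There were 0 with ordinary least squares and with a covariate for Y-linked signal. The same held without WT replicate 3, Jak2VF replicate 2, or Jak2VF_Ezh2KO replicate 1 or 2. Flt3 was the only one in a fit of those 2 groups alone and without Jak2VF replicate 3. Procr was the only one without WT replicate 1, and Emcn without Jak2VF_Ezh2KO replicate 3.

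The genes with the profiles most like those of the 3 members were found by the root mean square difference of log2 values centred per gene over the 9 arrays. Procr itself deviated by 0.40 from its own mean on that measure. Its nearest genes were Serpina1e at 0.13, Alcam at 0.15 and Hacd4 at 0.19. Alcam, an adhesion molecule of stem cells, averaged 7.40 ± 0.20 in Jak2VF_Ezh2KO, 6.75 ± 0.18 in Jak2VF and 7.26 ± 0.06 in WT (log2 signal, SD, n = 3 each), and Serpina1e belongs to a family of near-identical copies, so its signal is uncertain. For Emcn, with a deviation of 0.67, they were Bex1 at 0.34, Chil5 at 0.37 and Tspan6 at 0.38, and for Cd48, with 0.63, they were Cst7 at 0.22, Cox10 at 0.27 and Emilin2 at 0.28. Emcn and Procr differed from each other by 0.48, and Emcn and Cd48 by 1.16. With 22180 genes and 9 arrays, near profiles also arise among unrelated genes.

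**Figure D4:**
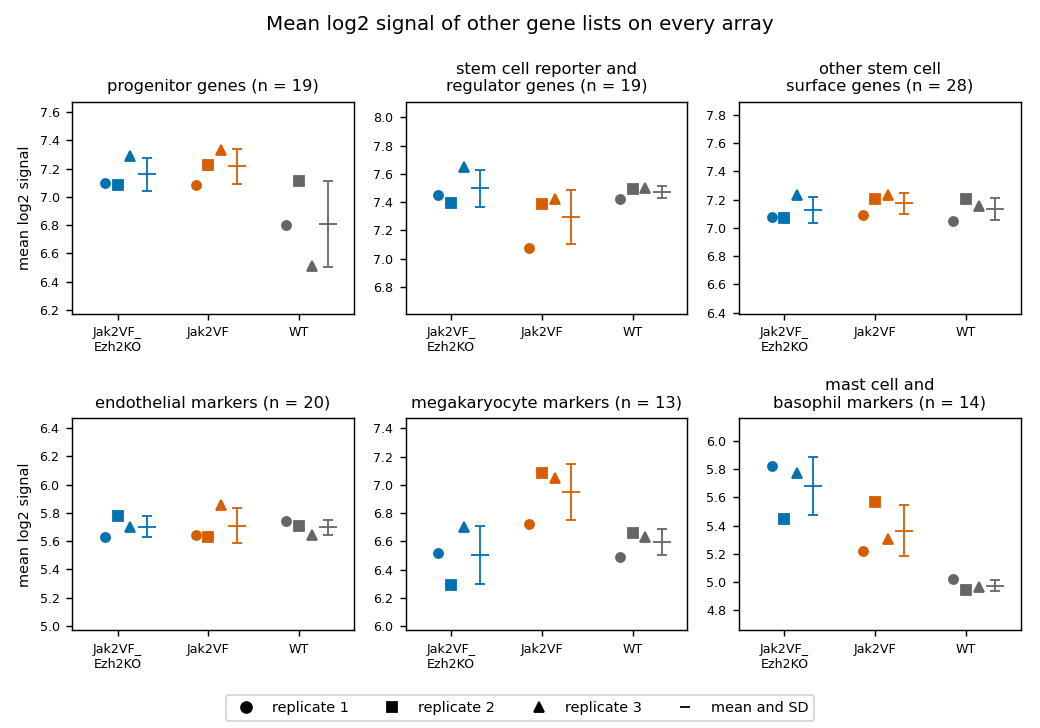
Mean log2 signal (vertical axes, each spanning the same number of log2 units) over the measured genes of 6 lists on every array, without the members, by genotype (horizontal axes). Circles, squares and triangles are replicates 1, 2 and 3, and bars give the mean and SD of 3 arrays. Progenitor genes are lowest on WT replicates 1 and 3, and the endothelial means overlap between all groups.

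Other stem cell genes were set beside the members. Of 28 measured further surface genes 1 passed, the integrin gene Itga2b (CD41), which fell in Jak2VF_Ezh2KO against Jak2VF with a difference of -1.45 (limma, adjusted p = 0.0441). This call was lost in 15 of 21 other settings, among them each fit with 1 array left out, the replicate block (adjusted p = 0.131), ordinary least squares and the fit of those 2 groups alone, with differences from -1.57 to -1.33 (limma, adjusted p from 0.0199 to 0.45). It read 7.08, 6.59 and 6.85 in Jak2VF_Ezh2KO, 8.07, 8.51 and 8.31 in Jak2VF, and 6.86, 7.41 and 7.10 in WT. This was a direction opposite to that of Procr and Emcn in the same comparison. The interleukin-18 receptor gene Il18r1 was 0.89 higher in Jak2VF_Ezh2KO than in Jak2VF (limma, adjusted p = 0.253) and 1.17 higher than in WT (limma, adjusted p = 0.106). The mean of the 28 genes lay between 7.05 and 7.23 on all arrays, but single genes moved both ways. In Jak2VF against WT, groups did not overlap for 4 higher and 3 lower, against 3.54% and 2.57% of all genes. For Jak2VF_Ezh2KO against Jak2VF they were 4 higher and 4 lower, against 4.18% and 6.94%. Against WT, Jak2VF_Ezh2KO had 3 higher and 3 lower, where 6.28% and 6.62% of all genes did so.

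Of 19 measured stem cell reporter and regulator genes 0 passed. The median of Jak2VF minus WT was -0.05, against 0.03 over all genes, and that of Jak2VF_Ezh2KO minus Jak2VF was 0.26, against -0.04. Groups did not overlap for 7 genes on the lower and 1 on the higher side in Jak2VF against WT, where 2.57% and 3.54% of all genes did so. For Jak2VF_Ezh2KO against Jak2VF they were 5 higher and 1 lower, against 4.18% and 6.94% of all genes, and for Jak2VF_Ezh2KO against WT 1 higher and 4 lower, against 6.28% and 6.62%. The sulfotransferase gene Sult1a1 averaged 7.63 ± 0.16 in Jak2VF_Ezh2KO, 6.38 ± 0.38 in Jak2VF and 7.66 ± 0.30 in WT (log2 signal, SD, n = 3 each). Mecom, a stem cell transcription factor, averaged 7.36 ± 0.19 in Jak2VF_Ezh2KO, 7.05 ± 0.13 in Jak2VF and 7.76 ± 0.18 in WT. Mllt3, a chromatin reader gene of stem cells, averaged 7.77 ± 0.10 in Jak2VF_Ezh2KO, 7.42 ± 0.15 in Jak2VF and 7.98 ± 0.05 in WT. All 3 had their lowest mean in Jak2VF, like Procr and Emcn, and none passed (limma, adjusted p = 0.132 at the lowest, for Sult1a1 in Jak2VF_Ezh2KO against Jak2VF). The mean of the list was lowest on Jak2VF replicate 1, at 7.07, against 7.38 to 7.65 on the other arrays, an array on which Procr and Emcn were not the lowest of their group.

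Markers of other mature cells varied as follows. Megakaryocyte markers averaged 6.29 to 6.70 in Jak2VF_Ezh2KO, 6.72 to 7.09 in Jak2VF and 6.49 to 6.66 in WT over 13 genes, with Itga2b the 1 call. Gp5 and Itgb3 had Jak2VF_Ezh2KO minus Jak2VF differences of -1.26 and -0.82 without passing. The megakaryocyte means were highest on the arrays where Procr and Emcn were lowest, and their part in those values was not tested. Erythroid markers averaged 7.92 to 8.14 in Jak2VF_Ezh2KO, 7.20 to 8.02 in Jak2VF and 7.25 to 7.98 in WT, with Rhd, Klf1 and Tfrc first by F-test p. The mean of 15 neutrophil and monocyte markers was 5.65 to 6.48 in Jak2VF_Ezh2KO, 5.65 to 6.03 in Jak2VF and 5.69 to 5.83 in WT, with S100a8, S100a9 and Cd14 first by F-test p. The value of 6.48 was that of Jak2VF_Ezh2KO replicate 3, where S100a8 read 9.91 and S100a9 8.50, their highest values. Cd14, at 4.72 there, did not share this rise. B cell markers averaged 6.14 on Jak2VF_Ezh2KO replicate 3, the array with the highest Emcn, Kit and Esam, against 5.09 to 5.38 on the others. On that array Igll1 read 8.15 and Ebf1 read 5.55. Cd79b, the 1 B cell marker above the 95th percentile of the receptor genes, did not share this rise. It read 7.87 there, against 8.14 and 7.95 on WT replicates 1 and 2, and its Jak2VF_Ezh2KO minus Jak2VF difference was -0.53 (limma, adjusted p = 0.744). T and NK cell markers averaged 5.70 to 5.88 in Jak2VF_Ezh2KO, 5.45 to 5.56 in Jak2VF and 5.36 to 5.67 in WT, with Klrd1, Il2rb and Gzmb first by F-test p. None of the erythroid, neutrophil and monocyte, B cell or T and NK cell markers passed in any comparison. Of the mast cell and basophil list, Mcpt8 and Cpa3 were 2.24 and 1.76 higher in Jak2VF_Ezh2KO than in WT without passing (limma, adjusted p = 0.081 and 0.248). They were also 1.30 and 1.44 higher in Jak2VF than in WT (limma, adjusted p = 0.924 for both). Jak2VF_Ezh2KO minus Jak2VF was 0.94 and 0.33 (limma, adjusted p = 0.55 and 0.892).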

How the data were processed

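Expression in sorted long-term stem cells was measured on 9 Affymetrix mouse arrays, 1 per sample, with 3 biological replicates in each of 3 genotypes. Per the labels' protocols, 10 ng of RNA was turned into cDNA with the Ovation Pico WTA System V2 and labelled with biotin. The submitters' processing notes name Partek 6.6. The authors deposited log2 values of 41345 probe sets. Their background correction, normalization and summary are unknown here, and no further normalization was applied. The number of arrays limits the precision.

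In the platform annotation 23521 probe sets had 1 symbol, 1814 had several and 16010 had none. For each gene the 1-symbol probe set with the highest mean over 9 arrays was kept, which left 22180 genes. All were fitted with limma 3.58.1 under R 4.3.3 (lmFit, then eBayes, 9 arrays in 1 fit of 3 group means, 6 residual degrees of freedom, prior of 3.83), and p-values were adjusted over all genes by Benjamini-Hochberg with a threshold of 0.05. Intervals are 95% intervals of that fit. The fit was tested on simulated data.

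The members and the 15 gene lists were chosen with earlier results of these data known. The lists hold 207 genes, of which 189 were measured. Besides the members, Ezh2 and Jak2, the text names from each list the genes that passed and the 3 with the smallest F-test p, and for members with an unadjusted F-test p under 0.05 the 3 nearest profiles (predicted, unnamed, small RNA and receptor genes passed over). Named outside this rule, after their values were seen, were genes listed for their signal relative to receptor genes and neighbours of Cd48. Promoter sequences and gene order are from RefSeq (GRCm38.p6). The alternatives were other variance models, scalings, filters, probe set rules, a replicate block, a sex covariate and single arrays left out. A fit without both arrays of Y-linked signal was chosen after seeing the data, as were the settings for Itga2b and Cma1.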

Additional observations from a re-analysis of the deposited data

How the results depend on the processing

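Over all genes, the numbers of genes past the threshold were 0 for Jak2VF against WT, 10 for Jak2VF_Ezh2KO against Jak2VF, 5 for Jak2VF_Ezh2KO against WT and 6 for any difference among the 3 groups (limma). In what follows the last 3 are given in that order where they moved by over 1.5 times, and the cause was not tested. Ordinary least squares without moderation and the fit without both arrays of Y-linked signal gave 0 in each, and fits of 2 groups alone gave 0 for both pairs. An intensity trend with robust variance gave 10 for Jak2VF_Ezh2KO against WT and 10 for any difference. Median centring gave 4 and 3 for the pairs. Leaving out the dimmer genes gave 19 for Jak2VF_Ezh2KO against Jak2VF and 15 for any difference. Array weights gave 14 and testing every probe set gave 3 for Jak2VF_Ezh2KO against WT. At an adjusted p under 0.1 the counts were 23, 13 and 16, and at an unadjusted p under 0.05 they were 1529, 1908 and 1526, with 1034 for Jak2VF against WT. Leaving out 1 array gave 0 to 17, 0 to 14 and 0 to 15, and 0 throughout for Jak2VF against WT.

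Correlations of deviations ran from -0.231 to 0.484 between same-numbered arrays of different groups and from -0.502 to 0.333 between differently numbered ones. With 3 arrays a group, these values cannot decide whether the replicate numbers pair the samples. With a replicate block the counts were 0, 0 and 0, and Procr in Jak2VF_Ezh2KO against Jak2VF had an adjusted p of 0.205 (limma).

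Procr, Emcn and Cd48 kept their direction in Jak2VF against WT, and Procr and Emcn in Jak2VF_Ezh2KO against Jak2VF, under every setting tried. Signs turned among members near 0. In Jak2VF against WT, median centring gave 0.019 for Slamf1 and 0.0028 for Esam, and leaving out 1 array gave -0.14 to 0.10 for Slamf1, -0.045 to 0.20 for Kit, -0.0081 to 0.45 for Flt3, -0.30 to 0.052 for Tek and -0.065 to 0.013 for Esam. In Jak2VF_Ezh2KO against Jak2VF, Tek was 0.0030 with array weights, and Tek and Kit were 0.078 and 0.33 both with a covariate for Y-linked signal and without those arrays. Leaving out 1 array gave -0.33 to 0.085 for Tek and -0.28 to 0.089 for Kit. In Jak2VF_Ezh2KO against WT, Emcn was 0.24 with that covariate and without those arrays, and leaving out 1 array gave -0.20 to 0.17 for Kit and -0.0082 to 0.13 for Esam. Cma1 in Jak2VF against WT was -0.017 with array weights and -0.083 to 0.20 with 1 array left out. A lone array in a group is assumed to vary like the others.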
